A study of Rattus norvegicus with 2 samples.

Results

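The cells described here are the cultured rat cortical neural stem cells with the smallest share of Olig1 and Olig2 transcripts. They were chosen within each library among cells with at least 5000 UMIs (unique molecular identifiers, each standing for 1 captured transcript) and at most 10% of UMIs from the mitochondrially encoded Mt- genes. The summed Olig1 and Olig2 UMIs were divided by the UMIs of the cell, and the lowest 15% of each library were taken as low cells. The rule gave 426 of 2838 cells in the ZD7288 library and 107 of 710 cells in the vehicle library, or 533 of 3548 cells that passed both limits and 4691 barcodes in all. The top 15% of the same library, again 426 and 107 cells, are called top cells, and the 1986 and 496 cells between them middle cells. Because the rule ranked cells on Olig1 and Olig2 themselves, the levels of these genes in the groups are a description and not a finding.

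The cells were neural stem cells from the cortex of Sprague-Dawley rats at stage E14.5, a commercial primary preparation grown in complete medium with FGF2, which holds back differentiation. The ZD7288 culture received 30 µM ZD7288, a blocker of HCN channels, in 0.2% DMSO, and the vehicle culture received 0.2% DMSO alone. Both were kept for 48 h with medium and additions renewed at 24 h, so DMSO, FGF2 and the medium change were common to both groups. The treatment label of the treated sample is spelled ZD2788, while the protocol names ZD7288. Each group was 1 library made with the droplet-based Chromium 3′ v2 chemistry, so culture, library and treatment cannot be told apart and no test between groups was possible. Libraries were matched to groups through the barcode suffix and the number that opens each sample title. Of all barcodes, 3 occurred in both libraries.

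Olig1 and Olig2 encode basic helix-loop-helix transcription factors best known for specifying and maturing the oligodendrocyte lineage. In the embryo Olig2 also marks ventral progenitor domains of the spinal cord and forebrain, while dorsal cortical progenitors in vivo carry little of either. Cortical progenitors cultured in FGF2 are known to switch both genes on, and the comparison below asks how cells with little of them stood in regional, glial and neurogenic identity genes.

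Few of the low cells lacked Olig transcripts. Olig1 had 377 UMIs per 1000000 (CPM) in low cells of the ZD7288 library, 857 CPM in middle cells and 1714 CPM in top cells. The vehicle library had 899 CPM of Olig1 in low cells, 1666 CPM in middle cells and 2824 CPM in top cells. Olig2 followed the same order, with 140 CPM, 262 CPM and 446 CPM in low, middle and top cells of the ZD7288 library and 251 CPM, 429 CPM and 665 CPM in those of the vehicle library. Low is therefore a relative term: the middle cells of the ZD7288 library had 1118 Olig1 and Olig2 UMIs per 1000000, close to the 1150 per 1000000 of the low cells of the vehicle library.

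No Olig1 or Olig2 UMI was found in 2 of 426 low cells of the ZD7288 library (0.469%, exact binomial 95% interval 0.0569 to 1.69%) and in 0 of 107 low cells of the vehicle library, which allows a share of up to 3.39% (exact binomial bound). After every cell was thinned at random to 5000 UMIs, 32 low cells of the ZD7288 library (7.51%) and 1 low cell of the vehicle library (0.935%) had none. The cultures held no named cell type known to be free of both genes, so UMIs from free RNA could not be set against such a background. Intervals here and below cover counting error only.

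The limit lay inside a continuous distribution. In the ZD7288 library the last cell inside had 659.7 Olig1 and Olig2 UMIs per 1000000 (13 of 19706 UMIs) and the first cell outside had 659.8 per 1000000 (21 of 31829 UMIs). The matching cells of the vehicle library had 1446 per 1000000 (30 of 20741 UMIs) and 1454 per 1000000 (15 of 10315 UMIs). Within 10% of the limit lay 242 cells (8.53%) of the ZD7288 library and 71 cells (10%) of the vehicle library.

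**Figure D1:**
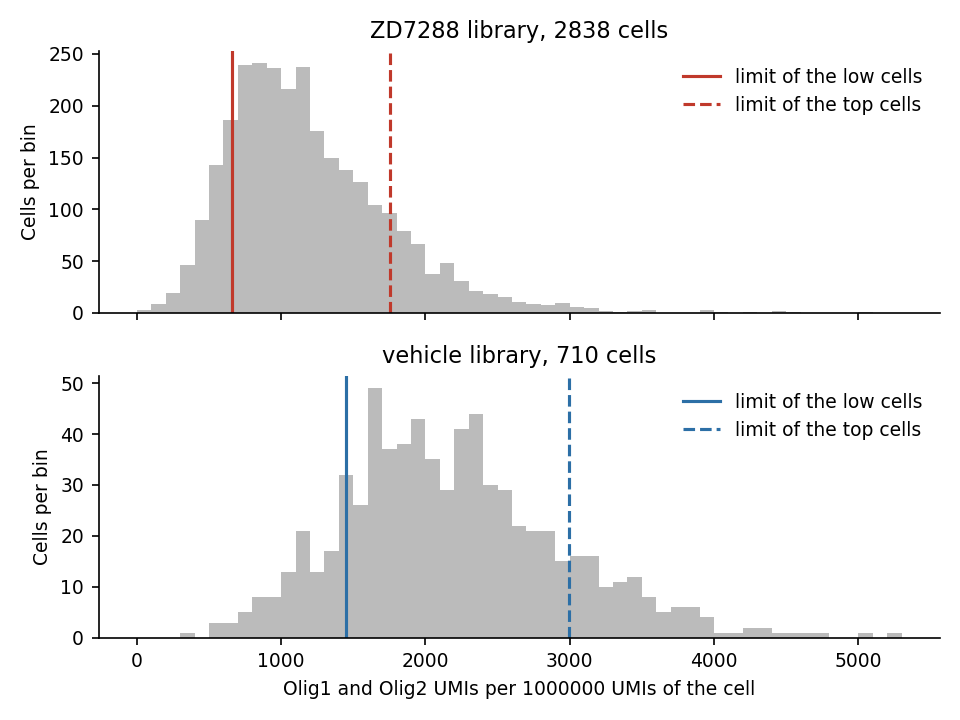
Histogram of Olig1 and Olig2 UMIs per 1000000 UMIs of a cell (x axis) against cells per bin (y axis) in the ZD7288 library (above, 2838 cells) and the vehicle library (below, 710 cells). A solid line marks the limit of the low cells and a dashed line that of the top cells. Each library shows 1 peak with the low cells on its left flank, and the low limit of the vehicle library at 1449 per 1000000 lies within the middle cells of the ZD7288 library.

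Olig1 and Olig2 were low together when each was read in cells chosen by the other alone. Among the 426 cells of the ZD7288 library with the lowest Olig1 share, Olig2 had 185 CPM, against 375 CPM in the 426 cells with the highest, a level 2.03-fold lower (95% interval 1.92 to 2.15). In the vehicle library Olig2 had 313 CPM in the Olig1-lowest cells and 581 CPM in the Olig1-highest, 1.85-fold lower (1.67 to 2.05). Read the other way, Olig1 was 1.77-fold lower (1.72 to 1.83) in the Olig2-lowest cells of the ZD7288 library and 1.39-fold lower (1.33 to 1.46) in those of the vehicle library. Over single cells thinned to 5000 UMIs the correlation was weak, with a Pearson r of 0.191 over 2838 cells and 0.198 over 710 cells, which share library and depth.

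The gap in Olig1 between low and top cells was smaller in UMIs that had no part in the choice. When cells were chosen on a random set of 1 in 2 of their UMIs, Olig1 was 5.30-fold lower in low than in top cells of the ZD7288 library in those UMIs and 2.92-fold lower (2.80 to 3.06) in the UMIs not used for choosing. In the vehicle library the gap was 3.34-fold in the UMIs used and 2.20-fold (2.05 to 2.37) in the others. The low cells thus had less Olig1 in both sets of UMIs.

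Low cells had more UMIs than top cells in both libraries, but fewer than middle cells in the vehicle library. The median cell had 25115 UMIs among low cells, 24394 among middle cells and 20633 among top cells of the ZD7288 library, and 17047, 18407 and 13208 UMIs in those of the vehicle library. The median Mt- share was 4.42%, 4.77% and 5.26% in low, middle and top cells of the ZD7288 library, and 5.82%, 5.89% and 5.86% in those of the vehicle library. At 5000 UMIs per cell the median number of genes was 1804 in low and 1799 in top cells of the ZD7288 library and 1707 in low and 1761 in top cells of the vehicle library. Together the low cells held 10936733 UMIs in the ZD7288 library and 2019426 in the vehicle library, and the top cells 9523761 and 1613855. The part of depth and Mt- share in the gene differences below was not tested beyond the alternatives given with the processing.

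Of 4452 genes with at least 20 CPM in the low or top cells of both libraries, 33 (0.741%) were higher in low cells of both libraries by a factor of 1.5 or more, and 78 (1.75%) were lower by that factor. Within the ZD7288 library 141 of 4774 genes (2.95%) were higher and 146 (3.06%) lower, and within the vehicle library 186 of 4765 (3.90%) were higher and 375 (7.87%) lower. The median gene of the vehicle library had a log2 ratio of -0.06, and ratios taken relative to it gave 242 higher and 302 lower genes there. Opposite directions past 1.5-fold in both libraries were rare. There were 2 genes (0.0449%) higher in low cells of the ZD7288 library and lower in those of the vehicle library, and 1 gene (0.0225%) the other way. Without a fold limit, only 2746 of the 4452 genes (61.7%) had a log2 ratio of the same sign in both libraries. Across these genes the log2 ratios of low over top cells had a Pearson r of 0.477 and a Spearman rho of 0.381 between the libraries, a description over genes that are not independent. The lower genes included Sox8 and Cnp of the oligodendrocyte lineage, the Notch ligand gene Dll1 and the progenitor gene Hes6, and the higher ones included Cd24, Igfbp3, Rgs3 and Kitlg.

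**Figure D2:**
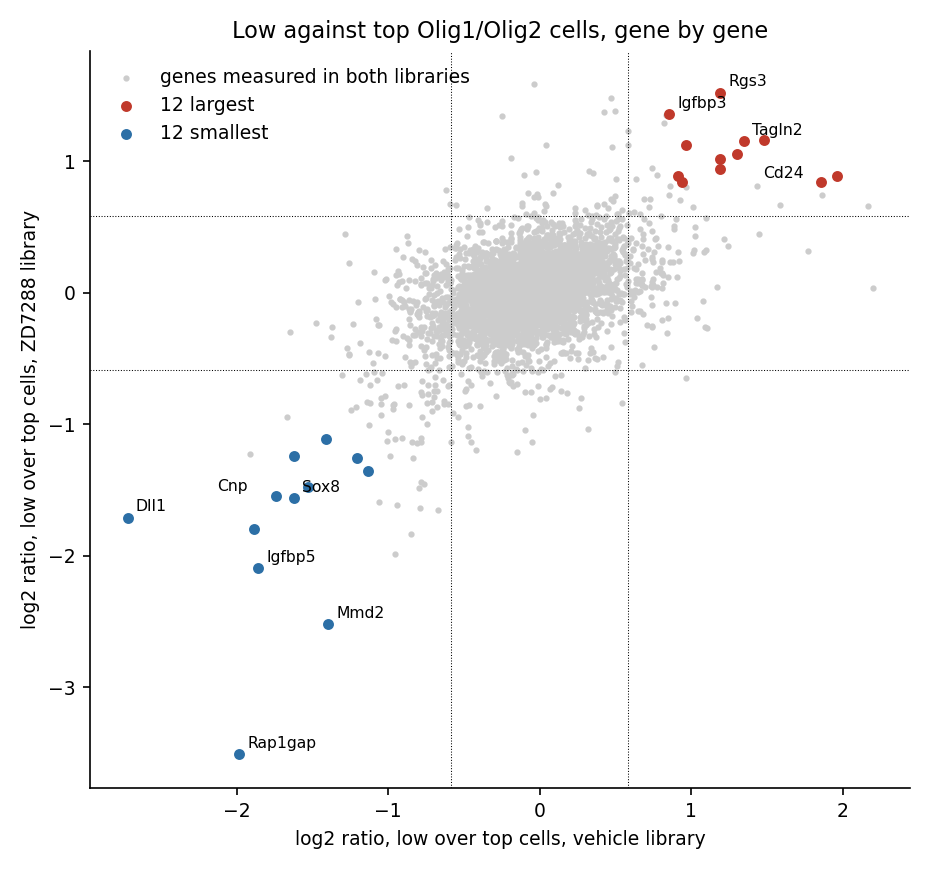
Each point is 1 of 4452 genes, with its log2 ratio of low over top cells in the vehicle library (x axis) and in the ZD7288 library (y axis); red and blue mark the 12 highest and 12 lowest genes and dotted lines 1.5-fold. Rap1gap lies farthest down at -3.51 in the ZD7288 library and -1.98 in the vehicle library, and Cd24 lies on the upper right at 0.84 and 1.86.

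Rap1gap, which encodes a GTPase-activating protein that switches off the small GTPase Rap1, had the widest gap of the 12 lowest genes in the ZD7288 library. It had 5.49 CPM in low cells, 13.7 CPM in middle cells and 62.6 CPM in top cells of the ZD7288 library, 11.4-fold lower in low than in top cells (8.74 to 15.1). In the vehicle library it had 35.7 CPM, 73.0 CPM and 141 CPM in low, middle and top cells, 3.95-fold lower in low than in top cells (3.02 to 5.23). In the ZD7288 library Rap1gap reached 20 CPM through the top cells alone, so a gap was a condition of its being counted there. In the vehicle library it was measured through both groups. The middle cells of the ZD7288 library had less Rap1gap than the low cells of the vehicle library. At 5000 UMIs per cell a Rap1gap UMI was found in 1.88% of low and 26.3% of top cells of the ZD7288 library (12.2% and 56.6% before thinning). The shares in the vehicle library were 13.1% of low and 42.1% of top cells (35.5% and 77.6% before thinning).

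Sox8 and Cnp, both of the oligodendrocyte lineage, stood beside it. Sox8, a SOXE transcription factor, had 42.4 CPM, 61.4 CPM and 125 CPM in low, middle and top cells of the ZD7288 library, 2.95-fold lower in low than in top cells (2.65 to 3.29). Sox8 levels of the vehicle library were 58.0 CPM, 101 CPM and 178 CPM, 3.08-fold lower (2.47 to 3.85). Cnp, which encodes the myelin-associated enzyme 2′,3′-cyclic nucleotide phosphodiesterase, had 45.6 CPM, 60.4 CPM and 133 CPM in low, middle and top cells of the ZD7288 library, 2.91-fold lower in low than in top cells (2.62 to 3.24). Its levels in the vehicle library were 81.8 CPM, 135 CPM and 274 CPM, 3.34-fold lower (2.79 to 4.02). Both genes were therefore lower by a like factor in each library. At 5000 UMIs a Cnp UMI was found in 20.2% of low and 41.3% of top cells of the ZD7288 library, and in 26.2% of low and 66.4% of top cells of the vehicle library (64.3%, 86.4%, 72.9% and 86.9% before thinning), with no background share from free RNA to set beside them.

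The other genes of the 12 lowest had fewer UMIs in top cells than Rap1gap, Sox8 and Cnp. Of the 12, 10 in the ZD7288 library and 7 in the vehicle library had under 20 CPM in low cells and were measured through the top cells alone, as against 169 and 233 of all 4452 genes, so a gap was a condition of their being counted. Dll1, a Notch ligand, had 6.59 CPM in low and 21.6 CPM in top cells of the ZD7288 library, 3.28-fold lower (2.49 to 4.35), and 5.95 CPM in low and 39.2 CPM in top cells of the vehicle library, 6.58-fold lower (3.52 to 13.4). Igfbp5, an IGF-binding protein, was 4.27-fold lower (3.46 to 5.31) in the ZD7288 library and 3.62-fold lower (2.08 to 6.58) in the vehicle library, where it rested on 18 UMIs in low cells and turned to a log2 ratio of 1.13 among cells with at most 5% Mt- UMIs. Mmd2 was 5.75-fold lower (4.15 to 8.14) in the ZD7288 library and 2.63-fold lower (1.68 to 4.22) in the vehicle library. Sh3bp4, Pcmtd2, Sulf2 (an extracellular heparan sulfate sulfatase), Nme3, Pdzrn4 and Apbb1 were between 2.16-fold and 3.47-fold lower in the ZD7288 library and between 2.19-fold and 3.69-fold lower in the vehicle library.

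Because Olig1, Olig2 and proneural bHLH proteins bind E-boxes, promoter windows were searched for the E-box CAGCTG, which reads the same on both strands and was the only motif searched. The windows are RefSeq promoters of build GRCr8, from 250 bases before to 50 bases after the gene's start; the build of the deposited files is not given in the sources used here. The E-box was found in 3 of the 11 lowest genes that have a promoter there (27.3%), namely Rap1gap, Cnp and Mmd2. It was found in 1 of the 10 highest (10%), and in 5040 of all 33469 promoters (15.06%). The lowest and highest genes were searched in 1 promoter each, while the 33469 counted every promoter listed. The matches in Rap1gap and Cnp are shown as examples with 20 bases on each side. Capitals mark the E-box, which lies 159 to 154 bases before the start in Rap1gap and 134 to 129 bases before it in Cnp. The match describes these letters and not binding.
Rap1gap, chr5:155175121-155175166, plus strand: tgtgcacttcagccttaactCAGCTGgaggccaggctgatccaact
Cnp, chr10:86011350-86011395, plus strand: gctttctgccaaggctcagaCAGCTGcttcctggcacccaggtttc

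Among the genes higher in low cells, Cd24, a surface glycoprotein gene of neural progenitors and young neurons, was the most abundant of the 12 highest. It had 752 CPM, 697 CPM and 419.8 CPM in low, middle and top cells of the ZD7288 library, a log2 ratio of low over top of 0.84. Vehicle cells had 571 CPM, 353 CPM and 157 CPM of Cd24, 3.63-fold higher in low than in top cells (3.16 to 4.17). At 5000 UMIs a Cd24 UMI was found in 89.7% of low and 74.2% of top cells of the ZD7288 library, and in 79.4% of low and 51.4% of top cells of the vehicle library (98.4%, 94.6%, 91.6% and 76.6% before thinning). Cd24 levels thus ran against Olig1 and Olig2 in both libraries, with the wider gap in the vehicle library.

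Rgs3, a regulator of G protein signalling, had 126 CPM, 86.0 CPM and 44.0 CPM in low, middle and top cells of the ZD7288 library and 31.2 CPM, 21.6 CPM and 13.7 CPM in those of the vehicle library, where it was 2.28-fold higher in low than in top cells (1.39 to 3.90). Igfbp3, another IGF-binding protein gene, had 292 CPM, 180.2 CPM and 114 CPM in low, middle and top cells of the ZD7288 library and 55.0 CPM, 43.1 CPM and 30.5 CPM in those of the vehicle library. Between low and top cells Igfbp3 and Igfbp5 ran in opposite directions, but Igfbp5 rested on 18 UMIs in low cells of the vehicle library. Its log2 ratio there turned to 1.13 with at most 5% Mt- UMIs and to 0.59 in cells from the cell cycle median. A single top cell of the ZD7288 library held 78 of its 416 UMIs there, and without that cell the top level was 35.7 CPM. Of the 12 highest genes, 4 in the ZD7288 library and 7 in the vehicle library were measured through the low cells alone. Kitlg, the ligand of the receptor Kit and 1 of these, had 27.4 CPM in low and 13.2 CPM in top cells of the ZD7288 library, and 32.2 CPM in low and 13.1 CPM in top cells of the vehicle library. The log2 ratios of low over top for Cmtm7, Tagln2, Hectd2, Mtmr11, Mtus1, Pcgf5, Tbxas1 and Inpp5f lay between 0.84 and 1.16 in the ZD7288 library and between 0.92 and 1.96 in the vehicle library.

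Most of these levels were graded along the Olig share. When each library was cut into 10 bins by the Olig share, Rap1gap had 4.3 CPM in the lowest bin, 7.2 CPM in the fifth and 70.5 CPM in the highest bin of the ZD7288 library, and 30.4 CPM, 71.2 CPM and 145 CPM in those of the vehicle library. Cnp stayed between 43.0 and 52.8 CPM over the lower 6 bins of the ZD7288 library and reached 144 CPM in the highest. Cd24 had 566 CPM in the lowest and 146 CPM in the highest bin of the vehicle library, with a lower level in each bin than in the one before. In the ZD7288 library Cd24 had 734 CPM in the lowest bin and 395 CPM in the highest, and most of that difference lay in the upper 4 bins.

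**Figure D3:**
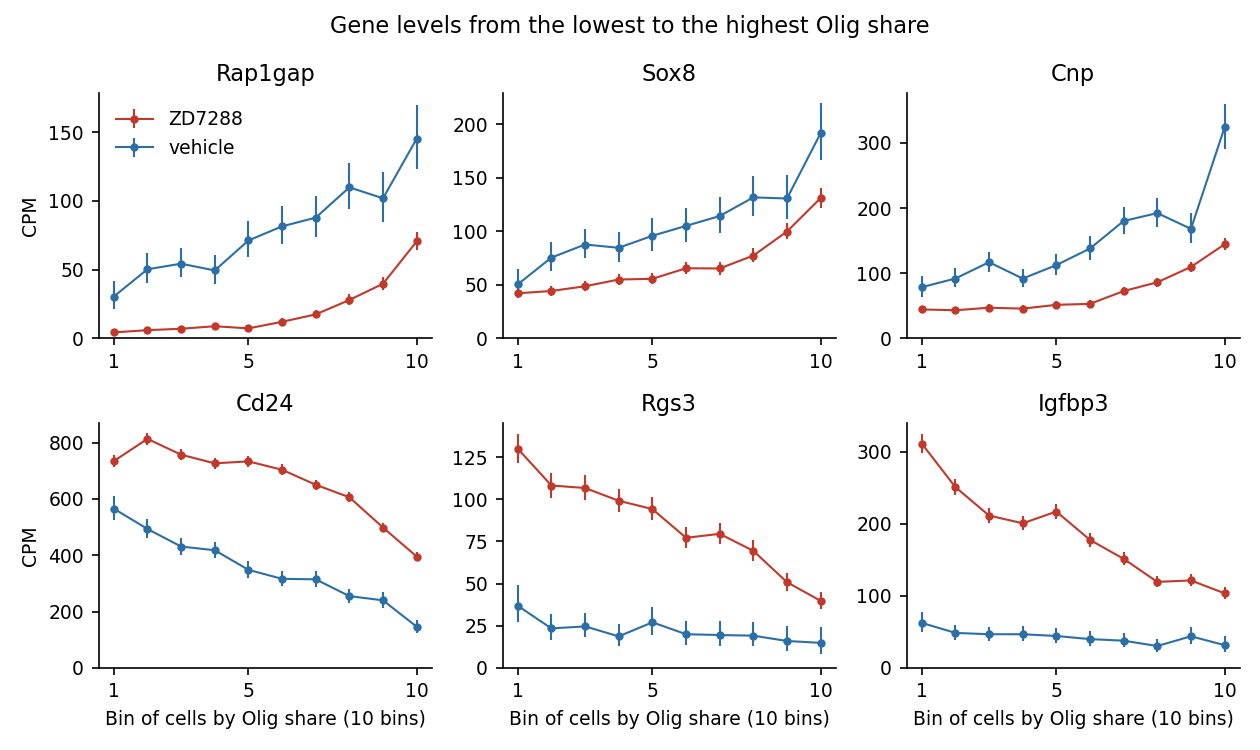
Level in CPM (y axis, from 0) in each of 10 bins of cells from the lowest to the highest Olig share (x axis), 1 panel per gene, with the ZD7288 and vehicle libraries as separate lines; bars are exact 95% Poisson intervals of the summed UMIs and cover counting error only. Rap1gap reaches 70.5 CPM in the highest bin of the ZD7288 library and 145 CPM in that of the vehicle library, while Cd24 runs the other way.

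Few regional identity genes reached the floor of 20 CPM. The gene lists used here and below count a member as higher or lower only when its log2 ratio passed 0.32 in the same direction in both libraries, a mark that 156 (3.50%) of the 4452 genes passed upward and 229 (5.14%) downward. A gene that reached 20 CPM only in the group where it was high had to differ, so counts and medians over measured genes describe these genes and support no direction of a list. Of 21 dorsal forebrain factors 3 were measured and none passed in both libraries. Taken alone, the ZD7288 library had 1 lower and 0 higher, and the vehicle library had 2 higher and 0 lower. Lhx2, a selector of cortical identity, had 39.4 CPM in low and 33.6 CPM in top cells of the ZD7288 library and 49.6 CPM in low and 36.1 CPM in top cells of the vehicle library, a log2 ratio of 0.46 there. Emx2 had 22.5 CPM in low and 18.9 CPM in top cells of the ZD7288 library and 21.8 CPM in low and 12.4 CPM in top cells of the vehicle library, 1.75-fold higher in low than in top cells there (1.01 to 3.14). The third, Nr2f1, a nuclear receptor of cortical area patterning, had log2 ratios of -0.51 in the ZD7288 library and -0.24 in the vehicle library. Pax6, which marks dorsal radial glia, stayed below the 20 CPM floor, with 14.3 CPM in low and 10.7 CPM in top cells of the ZD7288 library and 15.4 CPM in low and 13.1 CPM in top cells of the vehicle library.

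Ventral telencephalic genes showed no common direction. Of 21 such factors 4 were measured, of which 1 was higher and 1 lower in low cells. The defining ventral genes Dlx2 and Nkx2-1 had 0 UMIs in low and top cells of both libraries, and Dlx1 had 5 UMIs in low and 0 UMIs in top cells of the ZD7288 library. Of 34 midbrain, hindbrain and spinal factors none was measured, and their summed level was 7.78 CPM in low and 6.21 CPM in top cells of the ZD7288 library and 5.95 CPM in low and 7.46 CPM in top cells of the vehicle library.

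Few genes of the oligodendrocyte lineage other than Olig1 and Olig2 were measured, and some of these were lower in low cells. Of 29 such genes 6 were measured, all through both low and top cells, 3 were lower and none higher, with medians of -0.62 in the ZD7288 library and -0.40 in the vehicle library, against 0.01 and -0.06 over all measured genes. Beside Sox8 and Cnp the third was Bcas1, a gene of early myelinating cells, with 29.4 CPM in low and 53.5 CPM in top cells of the ZD7288 library and 40.7 CPM in low and 53.5 CPM in top cells of the vehicle library, where the interval of the fold reached across 1 (0.961 to 1.80 fold lower). The defining genes of committed precursors stayed below the 20 CPM floor, most with few or no UMIs, though Cspg4 had more UMIs in top than in low cells. Pdgfra, the PDGF receptor of oligodendrocyte precursors, had 1 UMI in low and 3 UMIs in top cells of the ZD7288 library and 0 UMIs in low and 5 UMIs in top cells of the vehicle library. Cspg4, the NG2 proteoglycan, had 4 UMIs in low and 52 UMIs in top cells of the ZD7288 library, and 7 UMIs in low and 13 UMIs in top cells of the vehicle library. Gpr17 had 0 UMIs in low and top cells of both libraries, Mbp had 0 UMIs in low and 2 UMIs in top cells of the ZD7288 library, and Sox10 had 8 UMIs in low and 1 UMI in top cells of the ZD7288 library.

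The list of neurogenic progenitor genes summed to less in low than in top cells. All 25 such genes together had 278 CPM, 378 CPM and 549.5 CPM in low, middle and top cells of the ZD7288 library and 359 CPM, 458 CPM and 608 CPM in those of the vehicle library. Only 6 of the 25 were measured, and 5 of these were lower in both libraries. Of the 6, however, 2 in the ZD7288 library and 3 in the vehicle library reached 20 CPM through the top cells alone and none through the low cells alone, so that count supports no direction. Hes6, a bHLH factor that antagonises Hes1 in differentiating progenitors, had 41.2 CPM, 67.3 CPM and 126 CPM in low, middle and top cells of the ZD7288 library, 3.07-fold lower in low than in top cells (2.75 to 3.43). In the vehicle library Hes6 had 73.9 CPM, 113 CPM and 142 CPM, 1.92-fold lower (1.55 to 2.38). Gadd45g, a growth arrest gene of differentiating progenitors, had 25.5 CPM in low and 49.0 CPM in top cells of the ZD7288 library and 14.9 CPM in low and 47.3 CPM in top cells of the vehicle library. A single low cell of the ZD7288 library held 61 of the 279 Gadd45g UMIs there, and without it, left out after the data were seen, the low level was 19.96 CPM, so a counting interval understates the error of that ratio. At 5000 UMIs a Gadd45g UMI was found in 8.22% of low and 19.5% of top cells of the ZD7288 library and in 6.54% of low and 16.8% of top cells of the vehicle library (33.8%, 51.2%, 20.6% and 31.8% before thinning). Eomes and Neurog2, which define dorsal intermediate progenitors, had 0 UMIs in low and top cells of both libraries.

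The Notch pathway list held Dll1 and Hes6 beside Notch1 itself. Of 26 genes 6 were measured and 3 were lower in both libraries, with 3 of the 6 measured through the top cells alone in the ZD7288 library and 1 in the vehicle library. Notch1 had 12.5 CPM in low and 27.6 CPM in top cells of the ZD7288 library, and 33.2 CPM in low and 45.4 CPM in top cells of the vehicle library, where its log2 ratio was 0.03 among cells with at most 5% Mt- UMIs. Dll3, a Delta-like ligand of neurogenic progenitors below the floor in the ZD7288 library, had 3.29 CPM in low and 19.4 CPM in top cells there and 10.4 CPM in low and 37.9 CPM in top cells of the vehicle library. Hes5, a main Notch target of radial glia in vivo, had at most 1 UMI in any of these groups.

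Neuronal genes gave a mixed picture in the ZD7288 library. Of 33 neuron genes 9 were measured, and 4 were lower and 1 higher in both libraries. Taken alone, the ZD7288 library had 4 lower and 2 higher and the vehicle library 8 lower and 1 higher. The summed level of the list was 568 CPM, 521 CPM and 587 CPM in low, middle and top cells of the ZD7288 library and 433 CPM, 501 CPM and 638 CPM in those of the vehicle library, and the gap between low and top cells was the wider one in the vehicle library. Stmn3, a tubulin-binding protein gene and 1 of the 4 lower genes, had 27.3 CPM in low and 34.5 CPM in top cells of the ZD7288 library and 19.8 CPM in low and 51.6 CPM in top cells of the vehicle library. Rtn1, Nsg1 and Gap43 were the others, at log2 ratios of -0.58, -0.52 and -0.39 in the ZD7288 library and -0.41, -0.39 and -0.60 in the vehicle library. Groups set by Olig2 alone gave Gap43 a log2 ratio of 0.10 in the ZD7288 library, and cells with at most 5% Mt- UMIs gave Rtn1 one of 0.04 in the vehicle library. Tubb3, the neuronal beta-tubulin, had 222 UMIs in low and 103 UMIs in top cells of the ZD7288 library and 1 UMI in low and 16 UMIs in top cells of the vehicle library. Of the 222 UMIs, 36 came from the 2 cells with many neuronal UMIs that are described below.

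Radial glia genes split. Of 25 such genes 15 were measured, 5 were lower and none passed as higher in both, with medians of -0.21 in the ZD7288 library and -0.15 in the vehicle library. Fabp7, the brain lipid-binding protein of radial glia, had 1771 CPM, 1981 CPM and 2549 CPM in low, middle and top cells of the ZD7288 library and 2119 CPM, 2579 CPM and 3835 CPM in those of the vehicle library. Sox9, a gliogenic SOXE factor, was 1.54-fold lower (1.40 to 1.70) in low cells of the ZD7288 library and 2.47-fold lower (2.01 to 3.03) in those of the vehicle library. Mfge8, a secreted adhesion protein gene of radial glia, was 1.78-fold lower (1.66 to 1.90) and 2.20-fold lower (1.89 to 2.56) in the ZD7288 and vehicle libraries. The stem cell genes Sox2 and Slc1a3 and the filament gene Vim differed less, at log2 ratios of 0.15, 0.15 and 0.02 in the ZD7288 library and 0.01, 0.27 and 0.39 in the vehicle library. Nes, the intermediate filament of neural stem cells, had 148 CPM in low and 119 CPM in top cells of the ZD7288 library and 130.4 CPM in low and 95.8 CPM in top cells of the vehicle library.

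Astroglial genes went both ways. Of 35 such genes 15 were measured, 3 were higher and 5 lower. Aldoc, a glycolytic aldolase of astroglia, was 1.93-fold lower (1.65 to 2.25) in low cells of the ZD7288 library and 1.71-fold lower (1.18 to 2.50) in those of the vehicle library, where it turned to a log2 ratio of 0.15 among cells with at most 5% Mt- UMIs. Sparc, a matricellular protein gene, ran the other way, with 96.7 CPM in low and 55.2 CPM in top cells of the ZD7288 library and 24.3 CPM in low and 12.4 CPM in top cells of the vehicle library. The mature astrocyte genes Aqp4 and Aldh1l1 had 0 UMIs in low and top cells of both libraries, and Gfap had 1 UMI in low and 1 UMI in top cells of the ZD7288 library.

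**Figure D4:**
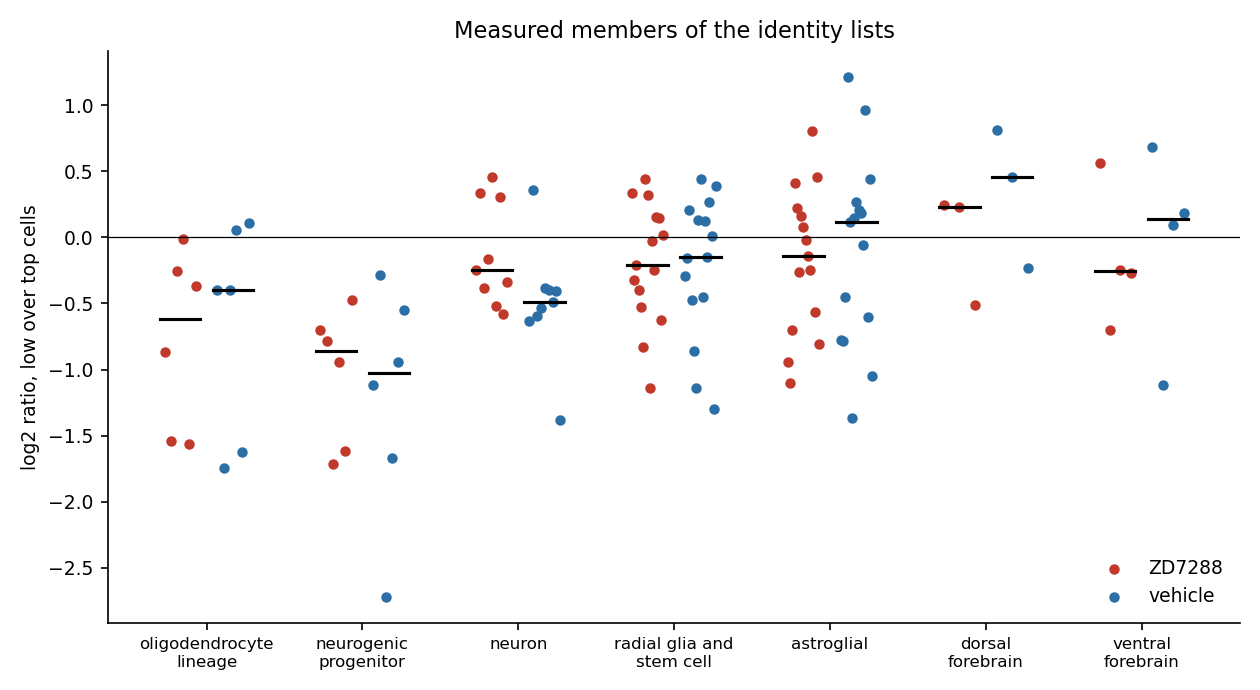
Each point is 1 measured gene of an identity list (x axis), with its log2 ratio of low over top cells (y axis), the ZD7288 library left of the vehicle library in each list and a bar at the median. The neurogenic progenitor genes lie mostly below 0 in both libraries (medians -0.86 and -1.03), and 2 of the 3 dorsal factors lie above it in both (medians 0.23 and 0.46). Of the 6 neurogenic genes, 2 in the ZD7288 library and 3 in the vehicle library were measured through the top cells alone. Of the 3 dorsal factors, 1 in each library was measured through the low cells alone, so these medians support no direction of a list.

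Stress response genes differed between low and top cells in the ZD7288 library more than in the vehicle library. Of 39 genes induced through ATF4 when amino acids are short 22 were measured in both, 6 were higher in low cells and none lower, with medians of 0.53 in the ZD7288 library and 0.04 in the vehicle library. Their summed level was 9088 CPM, 7994 CPM and 6379 CPM in low, middle and top cells of the ZD7288 library, against 2539 CPM, 2257 CPM and 2377 CPM in those of the vehicle library. Eif4ebp1, an inhibitor of cap-dependent translation, had 926 CPM in low and 556 CPM in top cells of the ZD7288 library and 302 CPM in low and 214 CPM in top cells of the vehicle library. Asns, asparagine synthetase, had 356 CPM in low and 249 CPM in top cells of the ZD7288 library and 51.1 CPM in low and 34.2 CPM in top cells of the vehicle library, where its log2 ratio was -0.12 between the lowest and top 10%. The difference between the libraries was not tested.

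The redox and damage lists were smaller. Of 21 genes of the NRF2 response 16 were measured and 2 were higher, with medians of 0.24 in the ZD7288 library and -0.03 in the vehicle library; Gclc, the catalytic subunit of glutathione synthesis, had 89.8 CPM in low and 34.6 CPM in top cells of the ZD7288 library and 20.8 CPM in low and 15.5 CPM in top cells of the vehicle library. Gadd45a, a stress and p53 target gene, had 376 CPM in low and 195 CPM in top cells of the ZD7288 library and 124.9 CPM in low and 74.6 CPM in top cells of the vehicle library. Cdkn1a, the CDK inhibitor p21, did not share this direction, with 198 CPM in low and 216 CPM in top cells of the ZD7288 library and 48.6 CPM in low and 81.5 CPM in top cells of the vehicle library.

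Cell cycle genes gave no common direction. Low cells averaged 42.4 UMIs of S, G2 and M phase genes per 5000 UMIs, middle cells 46.3 and top cells 43.5 in the ZD7288 library, and 46.3, 46.5 and 45.9 in the vehicle library. Of these, S phase genes made up 16.4 UMIs in low and 20.1 in top cells of the ZD7288 library, and 20.3 in low and 17.4 in top cells of the vehicle library. None of 41 measured S phase genes passed in both libraries, and 2 of 49 measured G2 and M phase genes did, both higher.

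Genes of other cell types were rare in the low cells. Mesenchymal genes summed to 91.8 CPM, 41.9 CPM and 35.7 CPM in low, middle and top cells of the ZD7288 library and 15.9 CPM, 12.4 CPM and 11.8 CPM in those of the vehicle library, with 3 and 16 of the 24 genes at 0 in the low cells. Endothelial genes summed to at most 4.57 CPM and microglial genes to at most 1.87 CPM in low or top cells. The ependymal list summed to 2.65 CPM in low and 16.9 CPM in top cells of the ZD7288 library and 15.4 CPM in low and 60.3 CPM in top cells of the vehicle library, almost all of it from Cfap52, a cilia and flagella gene singled out after its values were seen.

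A handful of low cells of the ZD7288 library stood apart. By limits chosen after the data were seen, 7 of 426 low cells had at least 100 UMIs of Col1a1, Col1a2 and Col3a1 per 1000000, against 2 of 1986 middle cells and 0 of 426 top cells of that library and 0 low, middle or top cells of the vehicle library. They held 160 UMIs of Col1a1 and 165 of Col3a1, the fibrillar collagens, with 67 of Lum, a collagen-binding proteoglycan, and 618 of Lgals1. The spread was uneven, with Col1a1 found in 5 of the 7 cells, Col3a1 in 6, Lum in 4 and Lgals1 in 6. A single cell held up to 57, 67, 35 and 164 UMIs of these genes. Fabp7 had 284 CPM and Olig1 94.7 CPM in these 7 cells, and both low cells without any Olig1 or Olig2 UMI were among them. A further 2 low cells had at least 10000 neuron list UMIs per 1000000, with 49 UMIs of Stmn2, 36 of Tubb3 and 33 of Gap43, and no middle or top cell did. When these 9 cells were left out, all 33 higher and 78 lower genes kept their direction, and 30 and 78 of them still passed 1.5-fold in both libraries. The genes were called with these 9 cells and all the other cells included, so this was largely fixed by that choice.

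**Figure D5:**
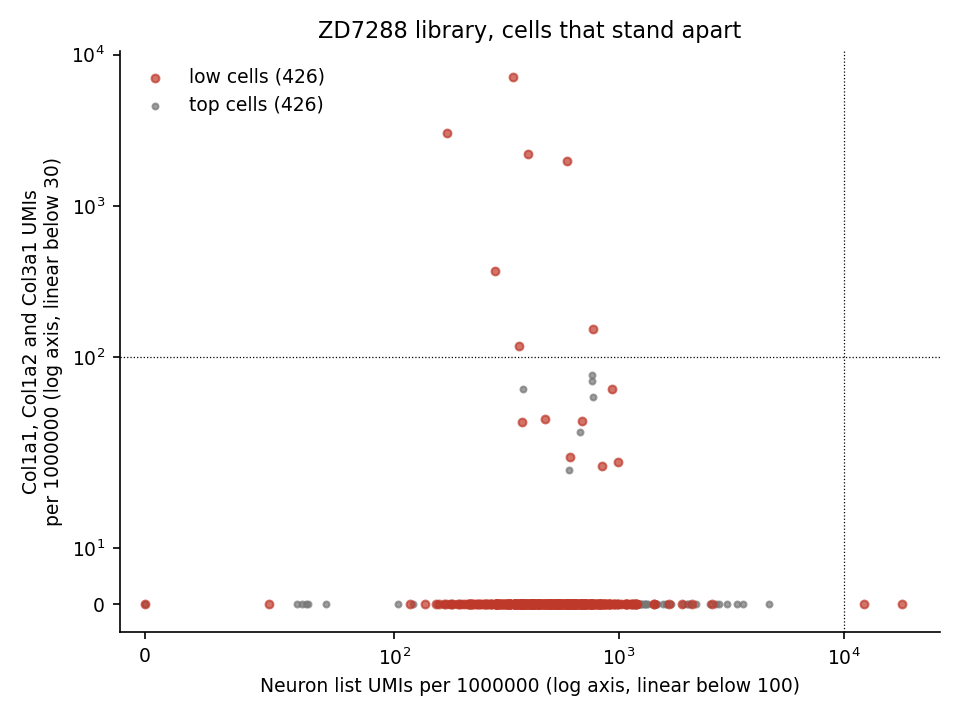
Neuron list UMIs per 1000000 (x axis, log scale, linear near 0) against Col1a1, Col1a2 and Col3a1 UMIs per 1000000 (y axis, log scale, linear near 0) for the 426 low and 426 top cells of the ZD7288 library, 1 point per cell, with dotted lines at 100 and 10000. The 7 low cells with collagen UMIs and the 2 with neuron list UMIs lie away from the other low cells.

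Clusters of low cells differed in cell cycle genes in the ZD7288 library and less so in the vehicle library. Leiden clustering divided the low cells of the ZD7288 library into 4 clusters of 152, 111, 102 and 61 cells and those of the vehicle library into 2 clusters of 71 and 36 cells. The clusters had near-equal Olig1 and Olig2 levels, between 484 and 541 UMIs per 1000000 in the ZD7288 library and 1134 and 1180 in the vehicle library. In the ZD7288 library the first cluster had 9.33 S phase and 10.0 G2 and M phase UMIs per 5000 and was led by Lgals1, Mgst1 and Ifi27l2b. The second was led by the replication genes Ccne2 and Dscc1 with 23.9 S phase UMIs, the third by Tuba1c, Cdc20 and Plk1 with 51.2 G2 and M phase UMIs, and the fourth by Hist1h1e, Tcf19 and Cdc45 with 25.2 S phase UMIs. Of the vehicle clusters, the first had 22.4 S phase and 24.7 G2 and M phase UMIs and was led by Eif2s3y, Asns, Usp39 and Pmpcb, and the second had 16.3 and 28.7 UMIs and was led by Mtmr11, Arhgap11a and Zfand3. The median Mt- share was 5.28% in the first vehicle cluster and 6.71% in the second, and an Eif2s3y UMI was found in 35.2% of cells of the first. No cluster was led by markers of a cell type, so none is named. Mesenchymal genes summed to 227 CPM in the first cluster of the ZD7288 library, against 24.3 to 37.3 CPM in the other 3. Lgals1, which leads that cluster, had a variance over mean of 10.1 among low cells of the ZD7288 library at 5000 UMIs, against 2.41 among top cells. The 7 cells with collagen UMIs held 618 of its 1951 UMIs in low cells, at 4500 CPM, against 124 CPM in the 417 low cells that did not stand apart.

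Low cells of the ZD7288 library were also set beside low cells of the vehicle library. Of 4857 genes with at least 20 CPM in either, 710 (14.6%) passed 1.5-fold upward in ZD7288 and 309 (6.36%) downward, against 362 (7.49%) and 231 (4.78%) of 4835 among top cells. The median of all these genes had a log2 ratio of 0.10 in low cells, and relative to it 512 passed upward and 446 downward. Past log2 0.32 were 31.1% upward and 16.6% downward in low cells, and 18.5% and 14.9% in top cells. Of 32 measured ATF4 response genes 30 were higher by log2 0.32 in ZD7288 low cells, with a median of 1.95, against 31 of 32 with a median of 1.40 in top cells. Only 22 of the list reached 20 CPM in low or top cells of both libraries. Genes that reached it in ZD7288 cells alone had to be higher, so these counts and medians were partly fixed by the floor. The sum of all 39 genes, which needs no floor, was 9088 CPM in ZD7288 and 2539 CPM in vehicle low cells. In top cells it was 6379 CPM and 2377 CPM. The low and top comparisons used the same 2 libraries at different ends of the Olig range. The low limits differed, so the Olig levels of the 2 low groups were not matched.

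The 8 highest genes in ZD7288 low cells were Ifi27l2b, Trib3, Mgst1, Cth, Tubb3, Slc7a3, Creb3l1 and Slc7a11. All 8 had under 20 CPM in vehicle low cells and were measured through the ZD7288 low cells alone, so a gap was a condition of their being counted. Slc7a11, the cystine transporter, had 81.1 CPM in ZD7288 and 5.95 CPM in vehicle low cells, 13.6-fold higher (7.76 to 26.5). Slc7a3, a cationic amino acid transporter, had 218 CPM in ZD7288 and 7.93 CPM in vehicle low cells, 27.4-fold higher (16.9 to 48.1). Cth, the cysteine-forming enzyme of transsulfuration, had 143 CPM in ZD7288 and 2.97 CPM in vehicle low cells, 48.2-fold higher (22.1 to 132). In vehicle low cells Cth rested on 6 UMIs, Slc7a11 on 12 and Slc7a3 on 16. Trib3, Creb3l1, Mgst1, Tubb3 and Ifi27l2b rested on 3, 4, 1, 1 and 1 UMIs in vehicle low cells, so the size of their ratios is poorly bounded, and Ifi27l2b belongs to a family of near-identical copies among which reads could be split. Tubb3 had 20.3 CPM in all ZD7288 low cells but 17.3 CPM in the 417 that did not stand apart, which is under the 20 CPM floor.

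The 8 lowest genes in ZD7288 low cells were Rap1gap, Cib2, Gal3st1, Tspan11, Aif1l, Sdf2l1, Tcf7l1 and Cacng4. All 8 had under 20 CPM in ZD7288 low cells and were measured through the vehicle low cells alone. A gap was therefore a condition of their being counted. Rap1gap was 6.50-fold lower (4.55 to 9.32) in ZD7288 than in vehicle low cells and 2.25-fold lower (1.93 to 2.63) in ZD7288 than in vehicle top cells. Gal3st1, which makes the myelin lipid sulfatide, had 3.93 CPM in ZD7288 and 22.3 CPM in vehicle low cells, 5.67-fold lower (3.65 to 8.82). Cib2, Tspan11, Aif1l, Sdf2l1, Tcf7l1 and Cacng4 were between 2.88-fold and 6.34-fold lower.

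Cells of both libraries with Olig shares between the 2 low limits, 1646 of the ZD7288 library and 101 of the vehicle library, gave a comparison at nearer Olig levels, chosen after the data were seen. They had 1028 Olig1 and Olig2 UMIs per 1000000 in the ZD7288 library and 1178 in the vehicle library. There Rap1gap had 10.5 CPM in ZD7288 and 36.9 CPM in vehicle cells, 3.51-fold lower (2.69 to 4.51), and Gal3st1 5.14 CPM and 22.9 CPM, 4.45-fold lower (3.14 to 6.16). Cnp had 53.5 CPM in ZD7288 and 82.6 CPM in vehicle cells, 1.54-fold lower (1.31 to 1.81). Sox8 had 57.7 CPM in ZD7288 and 56.6 CPM in vehicle cells, with an interval of 0.841 to 1.25 for the ratio. Sox8 thus differed between the libraries by less than counting error at nearer Olig levels, while Rap1gap and Gal3st1 were lower in ZD7288 cells. All 101 vehicle cells here were also vehicle low cells. Rap1gap and Gal3st1 had been named from those low cells, so their being lower was partly fixed by that choice.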

How the data were processed

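Single-cell libraries of 1 ZD7288 culture and 1 vehicle culture were read as the UMI counts per gene and cell that the authors deposited as a matrix made with Cell Ranger 3.0.2, per the file headers and the submitters' processing notes. For genome build, annotation and the rule that kept barcodes, the sources used here give nothing. No deposited column was left unmapped to a library. Cells with at least 5000 UMIs and at most 10% Mt- UMIs were kept and grouped by their Olig1 and Olig2 share.

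UMIs were summed over the cells of a group and scaled to 1000000 without Olig1 and Olig2 in the total. A gene was measured at 20 CPM or more in the higher group and counted at 1.5-fold, or at log2 0.32 for members of gene lists. Ratios carry exact 95% binomial (Clopper-Pearson) intervals, which cover counting error only, and a count of 0 was set to 3 counts. With 1 library per group there are no replicates, no test and no p-value. Of 779 symbols in 30 written lists 751 matched, and the mitochondrially encoded and ribosomal genes were taken by prefix. Of 3548 kept cells 68 were marked as likely doublets (simulated-doublet scores, 0.8% of a library per 1000 cells) and stayed in.

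The members and lists were chosen with earlier results of these data known. Named genes are the 12 highest and 12 lowest low-over-top ratios, ranked by the library nearer to 0, up to 4 per list (or the 2 most abundant), defining identity genes, and the 8 highest and 8 lowest ratios of ZD7288 over vehicle low cells. Some genes that this rule names are not reported here. Clusters came from 15 principal components with Leiden resolution 0.5. Scripts were tested on simulated data. Python 3.11.15, numpy 2.4.6, scipy 1.17.1, scanpy 1.11.5, leidenalg 0.10.2 and matplotlib 3.10.9 were used.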

Additional observations from a re-analysis of the deposited data

Results flagged for a closer look

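In the following results low cells lay above top cells in one library and below them in the other. None of these differences between the libraries was tested, and each library is 1 sample.

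Gstp1, a glutathione transferase gene with similar copies among which reads could be split, had a log2 ratio of low over top cells of 0.68 in the ZD7288 library and -0.59 in the vehicle library. Sacm1l, a phosphoinositide phosphatase gene, had 0.78 and -0.62, and Fkbp7, a prolyl isomerase gene of the endoplasmic reticulum, had -0.65 and 0.96 in the ZD7288 and vehicle libraries. Fkbp7 and Sacm1l rested on 44 and 31 UMIs in the vehicle low cells.

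The median log2 ratio of the S phase list was -0.30 in the ZD7288 library and 0.15 in the vehicle library, and that of the G2 and M phase list was 0.19 and -0.29. The 12 measured mitochondrially encoded genes had medians of -0.26 in the ZD7288 library and 0.09 in the vehicle library, beside median Mt- shares of 4.42% in low and 5.26% in top cells of the ZD7288 library and 5.82% in low and 5.86% in top cells of the vehicle library. The ventral forebrain list, with 4 measured genes, had -0.26 and 0.14.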

How the results depend on the processing

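No paired analysis was possible because each group is 1 library, so the replicate number the groups share pairs nothing, and no library could be left out. The cause of the shifts below was not tested. Of 140 recomputed counts of genes 96 stayed within 1.5 times the reported count. In the order higher and lower in low cells in both libraries, reported as 33 and 78, the counts that left that range were 20 and 46 with the lowest and top 20%, 14 and 13 with groups by Olig2 alone, 56 and 125 with a floor of 10 CPM, 8 and 30 with a floor of 50 CPM and 5 and 16 at 2-fold, besides 39 lower genes after thinning to 5000 UMIs and 59 higher genes among cells from the median of cell cycle UMIs. Within the ZD7288 library (141 higher, 146 lower) they were 68 and 31 by Olig2 alone, 220 and 273 with 10 CPM, 74 and 63 with 50 CPM and 43 and 45 at 2-fold. Within the vehicle library (186 higher, 375 lower) they were 90 and 221 with 20%, 624 and 883 with at most 5% Mt- UMIs, 363 and 594 in cells below and 339 higher in cells from the median of cell cycle UMIs, 377 and 653 with 10 CPM, 45 and 126 with 50 CPM, 36 and 79 at 2-fold, 571 lower with 10%, 448 higher after thinning and 77 higher by Olig2 alone. Between ZD7288 and vehicle low cells (710 higher, 309 lower) they were 357 and 99 with 50 CPM, 210 and 81 at 2-fold, and for lower genes 542 with at most 5% Mt- UMIs, 504 after thinning, 470 below the cell cycle median and 544 with 10 CPM.

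The 33 higher and 78 lower genes were called in the same cells from all their UMIs, so keeping direction was largely fixed by that choice. Of these, 33 and 78 kept their direction in both libraries with 10%, 20%, 10000 UMIs per cell, Olig1 alone, without marked doublets and in the UMIs not used for choosing, 33 and 71 with Olig2 alone, 33 and 73 after thinning, 32 and 73 with at most 5% Mt- UMIs, 32 and 78 below the cell cycle median and 33 and 76 from it. Fewer still passed 1.5-fold in both: 11 and 15 with Olig2 alone, 13 and 30 after thinning, 21 and 41 with at most 5% Mt- UMIs, 17 and 60 below and 26 and 57 from the cell cycle median, 28 and 76 with 10%, 20 and 51 with 20%, 29 and 71 with 10000 UMIs, 28 and 70 with Olig1 alone, 32 and 78 without marked doublets and 24 and 58 in the UMIs not used for choosing. Leaving out the 9 cells that stood apart, chosen after the data were seen, kept 33 and 78, of which 30 and 78 still passed.

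Log2 ratios of low over top cells that changed sign in the vehicle library were, with at most 5% Mt- UMIs, Tspan11 -0.74, Notch1 0.033, Rtn1 0.042, Igfbp5 1.13 and Aldoc 0.15, with groups by Olig2 alone Kif20b -0.49, Asns -0.42, Me1 -0.12 and Aldoc 0.090, after thinning Kif20b -0.22 and Timp1 -0.043, with the lowest and top 10% Asns -0.12, in cells from the cell cycle median Igfbp5 0.59 and Aldoc 0.21, and in the UMIs not used for choosing Tcf7l1 0.068 and Tspan11 -0.44. In the ZD7288 library Gap43 was 0.10 by Olig2 alone. Log2 ratios of ZD7288 over vehicle low cells that changed sign were Gadd45g -0.67 with at most 5% Mt- UMIs, Lhx2 0.0484, Bcas1 0.044 and the dorsal list median 0.002 from the cell cycle median, the ventral list median 0.033 with 50 CPM, and Sox8 0.027 and Pmp22 0.077 in the shared range of Olig shares. Counting error limits genes with few UMIs in the vehicle library most, where the low cells held 2019426 UMIs.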

Other observations

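Genes outside the regional, glial and neurogenic lists also followed the Olig share. Tpm1, a tropomyosin gene of the actin cytoskeleton, had 112 CPM in low and 226 CPM in top cells of the ZD7288 library, and 150.2 CPM in low and 328 CPM in top cells of the vehicle library. Bmp7, a secreted bone morphogenetic protein, was the single member of 6 measured ID and BMP pathway genes that passed in both libraries, with 15.9 CPM in low and 29.1 CPM in top cells of the ZD7288 library and 22.8 CPM in low and 52.9 CPM in top cells of the vehicle library. In the ZD7288 library Bmp7 reached 20 CPM through the top cells alone, so a gap was a condition of its being counted there. Nnat, an imprinted proteolipid gene named after its values were seen, varied strongly among low cells of the ZD7288 library, with a variance over mean of 8.77 at 5000 UMIs, against 1.63 among top cells.

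The ERK feedback genes Dusp6 and Spry1 were higher in low cells of the ZD7288 library and nearly level in the vehicle library. Dusp6, a phosphatase of ERK, had 315 CPM in low and 218 CPM in top cells of the ZD7288 library, and 187 CPM in low and 178 CPM in top cells of the vehicle library. Spry1, an inhibitor of receptor tyrosine kinase signalling, had 262 CPM in low and 194 CPM in top cells of the ZD7288 library, and 174 CPM in low and 168 CPM in top cells of the vehicle library. None of 10 measured genes of that list passed in both libraries, and the difference between the libraries was not tested.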
